A study of Mus musculus with 6 samples.

Results

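The genes described here are the cytosolic ribosomal protein genes, 80 of the 21853 protein-coding genes of the mm10 GENCODE annotation. Membership was set by symbol alone (Rpl or Rps, digits and at most 1 letter a, l or x, together with Rpsa, Rplp0, Rplp1 and Rplp2). No measured value decides which genes belong, but earlier results of these data were known when genes and lists were chosen. The Rps6k kinases and pseudogenes were left out. Of the 80 genes, 49 belong to the large subunit and 31 to the small subunit, and they lie on 19 chromosomes. ATAC-seq, which marks DNA that the Tn5 transposase can reach, was performed on skeletal stem and progenitor cells (SSPCs) of untreated C57BL/6 mice. The cells came from bone marrow of the tibia and femur, were plated in flasks with serum-containing medium after centrifugation, and were used at the first passage. There were 3 libraries labelled young and 3 labelled middle-aged. The cells of the study came from at least 3 mice, and the labels do not tie a library to an animal, so the spread between libraries may be partly technical.

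Every ribosome holds 1 copy of most ribosomal proteins beside its rRNA, and growing cells transcribe these genes at a very high rate. Their mRNAs begin in a run of pyrimidines, the 5′ terminal oligopyrimidine (TOP) tract, through which mTOR signalling controls their translation. Rpl5 and Rpl11 also bind Mdm2 when ribosome assembly fails, and mutations of Rps19 are a known cause of Diamond-Blackfan anaemia.

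Peaks had been called in each library separately. A TSS peak is taken here as a called peak that overlaps 1000 bp either side of any annotated start site of a gene. Where a gene had several, the one with the highest -log10 q was used. Its percentile rank is its place by -log10 q within its own library's list, where 100 is the strongest peak. Its fold enrichment is the height of its summit over the local background, with 1 added to both. This lowers the ratio most where the background is low. The lowest background of a library ran from 1.65 (young 3) to 3.75 (young 1). The lists held 27628 (young 3) to 48344 peaks (middle-aged 3), and 49.5% to 58.0% of all protein-coding genes had a TSS peak. In the 3 middle-aged lists there were 46364 to 48344 peaks, against 27628 to 43941 in the 3 young ones. The height of the summit in overlapping fragments or reads could be recovered from the deposited values, and the lowest summit that was called stood at 8 (young 3) to 13 (young 1). Of 10 stromal markers, 7 to 8 had a TSS peak in 5 libraries and 4 in young 3, and Lepr and Prrx1 had none in any library. Of 10 blood and macrophage markers, 9 to 10 had one in every library, Ptprc and Spi1 included, and 0 of 5 hepatocyte markers had one in any. The label SSPC therefore stands beside open chromatin at blood cell genes in all 6 libraries, and the part of those cells in the values below was not tested.

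The start regions of Rpl15 and Rps23, which are among the ribosomal protein genes with the strongest TSS peaks, and of the 4 whose peak was missing in some libraries although their proteins are part of every ribosome, are shown first, since the results turn on this contrast. Each runs from 100 bases upstream of an annotated start to 10 bases into the transcript, 5′ to 3′ on the strand of the gene (mm10). Where a gene has several starts, the one used was that of the principal transcript, then the best supported, then the most upstream. Peaks were instead assigned to any start, so a peak may lie at another start than the one shown. The annotated genes Rpl15 and Rpl19 begin farther upstream than the starts shown. Capitals mark the motifs searched on both strands, CCGGAAG (ETS factors), GGGCGG (SP factors), AANATGGC (YY1), GCATGCGC (NRF1), CCAAT and TATAAA, and runs of at least 8 C or T on the sense strand within 20 bases of the start. A run that goes on past the end of the window is shown only up to there. Rpl15 is at chr14:18271058-18271167 (minus strand), Rps23 at chr13:90922858-90922967, Rpl4 at chr9:64173275-64173384, Rpl8 at chr15:76903978-76904087, Rpl12 at chr2:32961459-32961568 and Rpl19 at chr11:98026824-98026933 (all plus strand but Rpl15).
Rpl15: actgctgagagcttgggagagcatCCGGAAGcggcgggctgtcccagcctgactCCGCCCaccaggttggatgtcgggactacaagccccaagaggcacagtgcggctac
Rps23: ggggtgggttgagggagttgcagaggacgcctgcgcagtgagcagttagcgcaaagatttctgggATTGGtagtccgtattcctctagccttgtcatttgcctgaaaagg
Rpl4: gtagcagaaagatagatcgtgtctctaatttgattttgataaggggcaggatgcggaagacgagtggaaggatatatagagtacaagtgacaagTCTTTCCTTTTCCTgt
Rpl8: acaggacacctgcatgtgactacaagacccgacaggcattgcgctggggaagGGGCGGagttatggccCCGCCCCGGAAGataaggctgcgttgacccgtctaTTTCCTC
Rpl12: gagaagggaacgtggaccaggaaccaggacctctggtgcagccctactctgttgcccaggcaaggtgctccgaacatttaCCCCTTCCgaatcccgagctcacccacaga
Rpl19: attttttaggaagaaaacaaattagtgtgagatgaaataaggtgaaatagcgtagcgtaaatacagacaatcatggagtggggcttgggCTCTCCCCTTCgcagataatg

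The ribosomal protein genes had a TSS peak far more often than protein-coding genes as a whole, as did the other lists of translation genes described below. Their peaks were not stronger than those of other genes with a peak. Of the 80 genes, 73 (91.2%) carried a TSS peak throughout the 6 libraries, whereas 48.4% of all protein-coding genes did. In single libraries the number was 77, 75 and 74 of 80 in young 1 to 3, and 75, 78 and 78 in middle-aged 1 to 3. As a share of the 80 genes this averaged 94.2% ± 1.91 for young libraries (SD, n = 3). For middle-aged ones it averaged 96.2% ± 2.17 (SD, n = 3), which is 2.08 percentage points more and about as much as the SD. Over all protein-coding genes the same shares were 53.6% ± 3.72 and 57.6% ± 0.328 (SD, n = 3 each).

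Of the 7 genes that lacked a TSS peak somewhere, 3 encode paralogs whose expression is known to be restricted to some tissues. Rpl3l, the striated muscle paralog of Rpl3, and Rpl10l, the testis paralog of Rpl10, had no TSS peak in any of the 6 libraries. Rpl39l, a paralog of Rpl39 best known from testis, had a weak one in 3, with percentile ranks of 4.73 in young 1, 35.2 in middle-aged 2 and 31.4 in middle-aged 3. Their parent genes Rpl3, Rpl10 and Rpl39 each had a TSS peak in all 6.

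The other 4 encode core proteins of the large subunit. Rpl4 had no TSS peak in young 1, 2 and 3 or in middle-aged 1. In middle-aged 2 and 3 its peak ranked at 6.84 and 9.91, with 13 and 15 overlapping reads at the summit, close to the lowest summits called. The start of Rpl4 lies beside that of Zwilch on the opposite strand, its body holds 5 snoRNA genes, the most of any ribosomal protein gene, and its start carries the long pyrimidine run printed above.

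Rpl8 had no TSS peak in young 3 and middle-aged 1, and ranked at 55.8, 49.1, 46.0 and 66.0 in young 1, young 2, middle-aged 2 and middle-aged 3. Rpl19 had none in young 2. Its ranks in young 1 and young 3 were 29.7 and 14.6, and those in middle-aged 1, 2 and 3 were 48.9, 57.5 and 63.5, so that the 2 young values lay below all 3 middle-aged ones. Rpl12 was missing only in young 3, and its other 5 ranks lay between 66.5 and 73.6. The missing peaks of these 3 genes thus fell in young 2, young 3 and middle-aged 1, and those of Rpl4 in all young libraries and middle-aged 1. They were not in one group alone, but fell more often in young libraries. Over all protein-coding genes a TSS peak was also missing more often in young libraries, being present at 53.6% on average, against 57.6% in middle-aged ones.

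Ribosomal protein genes have many processed pseudogenes, which repeat parts of their sequence. Within 500 bp of the start chosen for each gene, none of the stretches of 50 bases at Rpl4, Rpl8 or Rpl19 recurred elsewhere in the genome. At Rpl12, 8.10% did. The highest share, 35.8%, was at Rps29, which is among the 5 genes with the strongest TSS peaks. Over the 73 genes, Spearman's rho between mean rank and this share was 0.06 (across genes, which are not replicates and share the same libraries). The part of repeated sequence in the missing peaks was not tested.

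**Figure D1:**
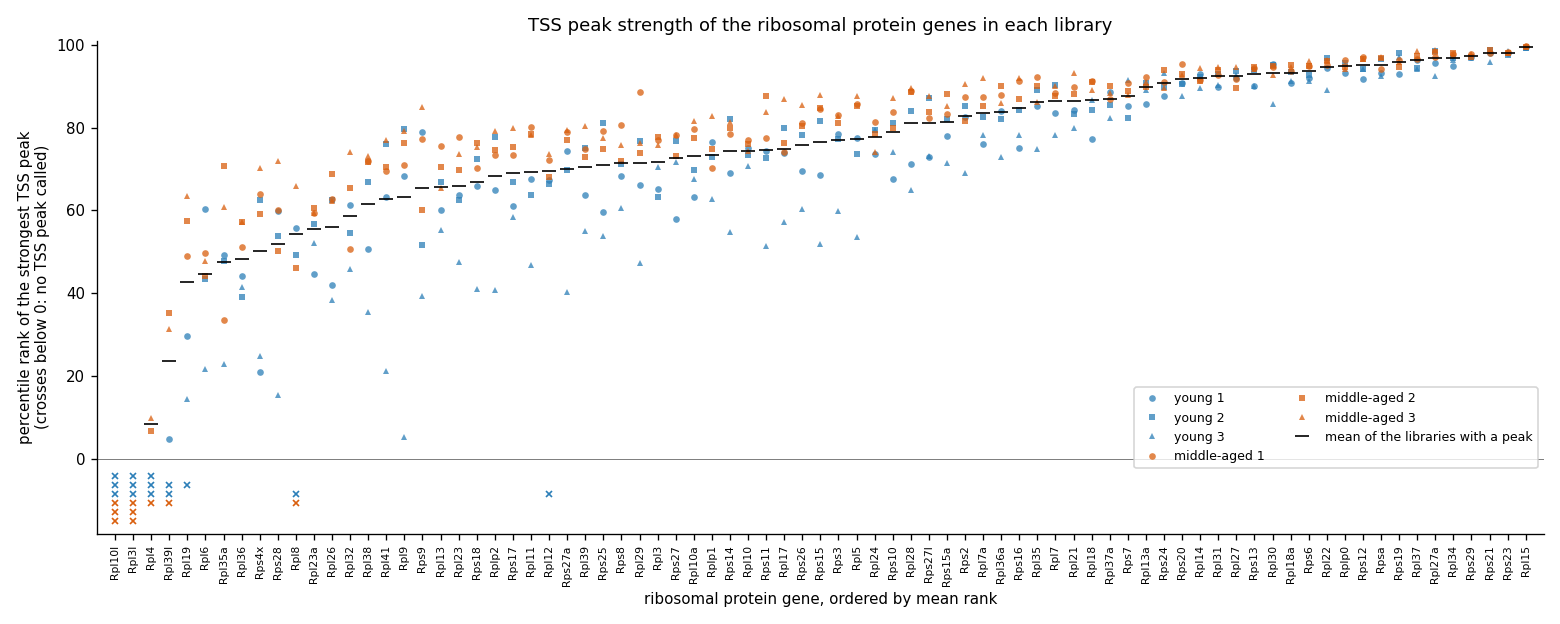
Percentile rank of the strongest TSS peak (y axis) of 79 of the 80 ribosomal protein genes (x axis, ordered by mean rank), with young libraries in blue, middle-aged in orange, the mean as a black bar and a cross below 0 for each library with no TSS peak. The points of a gene spread widely at the left, where triangles of young 3 lie lowest, and close up at the right, up to Rpl15 with all 6 points between 99.2 and 99.8.

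The strength of the peaks covered a wide range. Among the 73 genes with a TSS peak in all 6 libraries, the mean rank ran from 44.6 to 99.4 with a median of 78.9, against a median of 84.9 over the 10569 protein-coding genes with a peak in all 6. A mean rank of 90 or more was found at 22 of the 73 (30.1%) and at 35.7% of all such genes. A mean rank under 60 was found at 8 (11%) and at 12.8%. Ribosomal protein genes therefore had neither more of the strongest nor more of the weakest start site peaks than other genes with a peak.

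Rpl15, a large subunit gene, had the strongest TSS peak. Its ranks were 99.4, 99.2 and 99.2 in young 1 to 3 and 99.7, 99.4 and 99.8 in middle-aged 1 to 3, with folds of 18.4, 19.0, 18.2, 21.9, 21.3 and 22.5. Its start lies within 1000 bp of that of Nkiras1 on the opposite strand, so the peak cannot be given to Rpl15 alone.

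Among the next highest were the small subunit genes Rps23, Rps21 and Rps29, none of which had a start on the opposite strand within 1000 bp. Rps23, a protein of the decoding centre, ranked between 97.5 and 98.6, Rps21 between 95.8 and 98.8, and Rps29 between 96.7 and 97.8. The young and middle-aged ranks overlapped at each of these 3 genes. At Rpl15 all 3 middle-aged ranks lay above the 3 young ones, as they did at 30.6% of all genes with a peak in all 6 libraries. On the centred scale tested below, the groups overlapped at Rpl15.

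The lowest mean ranks among genes called in all 6 libraries were those of Rpl6, Rpl35a, Rpl36, Rps4x and Rps28. Rpl6, a large subunit gene, ranked at 60.3, 43.4 and 21.8 in young 1 to 3 and at 49.7, 44.2 and 47.9 in middle-aged 1 to 3. The number of overlapping reads at its summit was 32, 23, 14, 22, 20 and 23 in the same order, a fraction of the 190, 197, 102, 229, 214 and 244 at Rpl15. Rpl36 ranked between 39.0 and 57.2, and its 3 middle-aged ranks (51.1, 57.2 and 57.2) lay above its 3 young ones (44.2, 39.0 and 41.6). On the centred scale tested below, its groups also overlapped.

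Rps4x, the X-linked form of the small subunit protein S4, ranked at 21, 62.4 and 24.8 in young 1 to 3 and at 64.0, 59.1 and 70.2 in middle-aged 1 to 3, so that young 2 lay with the middle-aged libraries. Rpl35a, also mutated in Diamond-Blackfan anaemia, ranked between 22.9 (young 3) and 70.7 (middle-aged 2), and Rps28 between 15.3 (young 3) and 72.0 (middle-aged 3). The weaker the peaks, the larger was the spread between libraries: the median SD of the rank over 6 libraries was 12.7 among the 8 genes with a mean rank under 60 and 1.83 among the 22 with a mean rank of 90 or more. A rank cannot rise past 100, which limits the spread of the latter.

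Much of this spread came with 1 library. Young 3, which had the shortest list, held the lowest rank of 48 of the 73 genes (65.8%), and of 68.6% of all genes with a peak in all 6. An extreme case, chosen after its values were seen, was Rpl9, at 68.3 and 79.7 in young 1 and 2, at 5.29 in young 3, and at 70.9, 76.2 and 79.3 in middle-aged 1 to 3. Its summit in young 3 held 11 reads, against 34 to 50 in the other 5 libraries.

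Among the genes with roles outside the ribosome or at the stalk, Rpsa, which also serves as a laminin receptor, had strong peaks, with ranks between 92.5 and 97.1. Rplp0, the base of the acidic stalk that recruits translation factors, ranked between 93.2 and 96.4. Rplp1 and Rplp2, which form the dimers of the stalk, lay lower, between 62.9 and 82.7 and between 40.9 and 79.2, without any overlap with Rplp0. Rps6, the target of the S6 kinases, ranked at 92.1, 92.7 and 91.2 in young and 94.8, 94.8 and 96.1 in middle-aged libraries. Rps19 ranked between 92.9 and 98.1. Rps27a, made as a fusion with ubiquitin, ranked between 69.8 and 79.3 in 5 libraries and at 40.3 in young 3.

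Ribosomal genes whose symbols fall outside the rule also differed widely in rank. The 6 described here each had a TSS peak in all 6 libraries. Rpl22l1, the paralog of Rpl22, ranked at 98.4 ± 0.513 (mean and SD of 6 libraries), Rpl36al at 96.9 ± 1.06 and Rps3a1, which encodes ribosomal protein S3A, at 95.2 ± 3.28. Fau ranked at 73 ± 11.8, Rack1 at 68.6 ± 7.56 and Rpl7l1 at 56.1 ± 18.4.

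Beside 3 other lists of translation genes, the ribosomal protein genes had the lowest median rank in 5 of the 6 libraries, middle-aged 3 being the exception. The median rank in single libraries was 71.1 to 85.7 for the ribosomal protein genes, 76.3 to 85.8 for 78 mitochondrial ribosomal protein genes, 82.0 to 89.4 for 30 ribosome biogenesis genes and 90.1 to 94.5 for 30 translation factors. Over all genes with a TSS peak it was 76.5 to 85.6. The translation factors lay above the ribosomal protein genes in each of the 6 libraries, as did the biogenesis genes. These are descriptions of lists, and no test was made of the difference between them. A TSS peak was present in all 6 libraries at 30 of 30 translation factors, 28 of 30 biogenesis genes and 68 of 78 mitochondrial ribosomal protein genes.

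**Figure D2:**
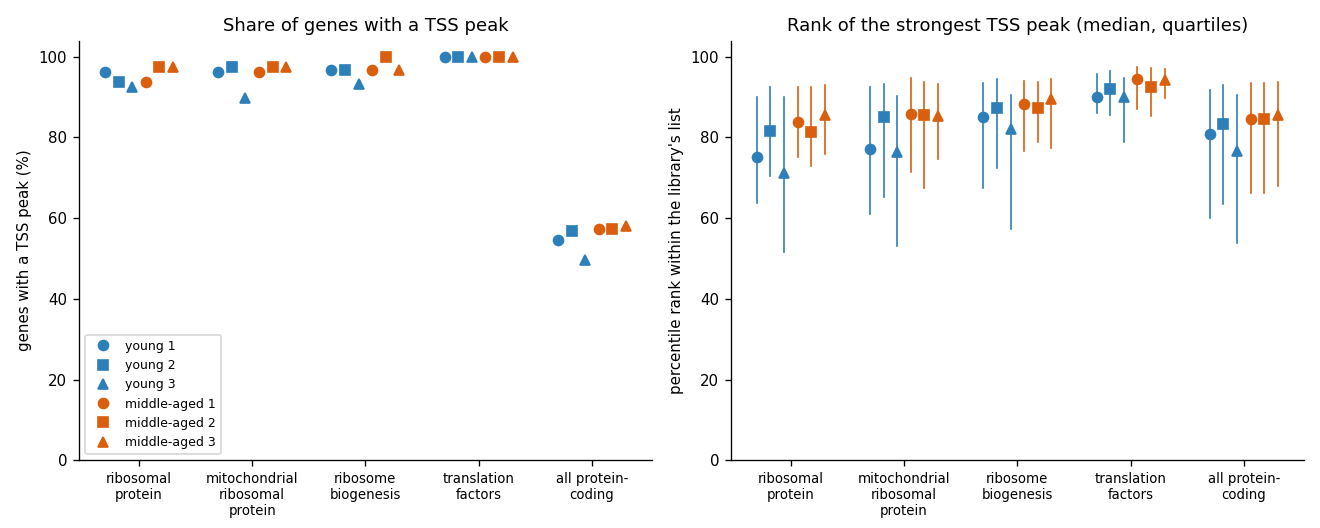
Left, percentage of genes with a TSS peak, and right, median percentile rank with quartiles as bars, for the ribosomal protein genes, 3 other lists of translation genes and all protein-coding genes, with 1 symbol per library (young blue, middle-aged orange). All lists of translation genes reach 89.7% or more at the left, whereas at the right the ribosomal protein genes lie below the other 3 lists of translation genes in 5 of 6 libraries and young 3 lies low in every list.

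The peaks were of ordinary width. The median width at ribosomal protein genes was 551, 539 and 396 bp in young 1 to 3 and 546, 550 and 606 bp in middle-aged 1 to 3. Over all genes with a TSS peak it was 512, 546 and 445 bp and 545, 546 and 559 bp. Wider peaks were also stronger, with a Spearman's rho of 0.68 between mean rank and mean width across the 73 genes, both of which rest on the same reads. Small subunit genes had a median of mean widths of 637 bp and a median of mean ranks of 81.1, and large subunit genes 533 bp and 77.5.

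Among the 73 genes with a peak in all 6 libraries, the narrowest peaks were those of Rpl36 (263 bp ± 48.8), Rpl6 (280 bp ± 45.2) and Rps28 (285 bp ± 36.5; SD, n = 6 each), which are also among the 5 weakest. The widest of the 73 were those of Rpl7 (1156 bp ± 469), Rpl30 (1030 bp ± 34.1) and Rps25 (888 bp ± 109). Rpl30 was wide in each library, between 970 and 1070 bp, whereas Rpl7 ran from 377 bp in middle-aged 3 to 1722 bp in young 1. The strongest peak at Rpl7 was not the same one in every library, so this range mixes different peaks. In middle-aged 3 its peak with the summit inside the window was 1218 bp wide.

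At most ribosomal protein genes the summit lay just upstream of the start, as it did over all genes. Among genes with a peak in all 6 libraries, the median position was -42.5 bp at ribosomal protein genes and -41 bp over all. It lay within 200 bp of an annotated start at 69 of the 73 genes (94.5%), against 84.5% of all genes with a peak in all 6 libraries. It lay upstream of the start at 61 of the 73 and downstream at 12 (16.4%), against 21.6% downstream of all such genes. The position moved little: the median span over the 6 libraries was 49 bp, and 55 bp over all such genes. The exceptions were Rpl7, Rpl10, Rpl13a and Rpl35. At Rpl35 the summit lay 429 to 447 bp downstream of the start in all 6 libraries. At Rpl10 and Rpl13a its median position was at -331 and -243 bp, upstream of the start.

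At Rpl7 the strongest peak had its summit at a median position of -1118 bp, upstream of the window, and 5 of the 6 libraries held 2 TSS peaks at this gene. With only peaks whose summit was inside the window, Rpl7 had no TSS peak in young 1 and ranked at 43.1 in young 2, 78.3 in young 3 and 47.5, 87.6 and 83.4 in middle-aged 1 to 3. No other ribosomal protein gene changed its peak under this rule.

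**Figure D3:**
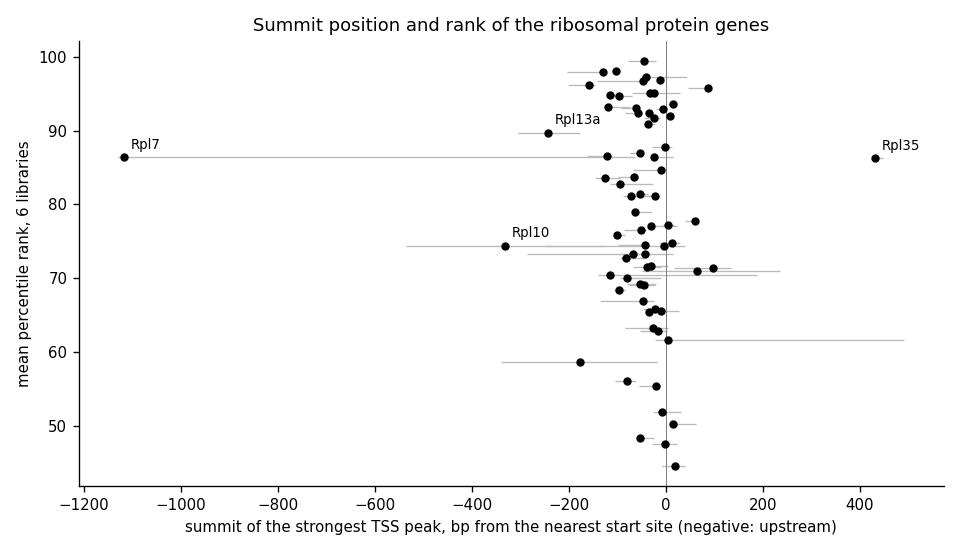
Distance of the summit of the strongest TSS peak from the nearest start site in bp (x axis, median as a point, lowest to highest library as a line) against mean percentile rank over 6 libraries (y axis) for 72 of the 73 ribosomal protein genes with a peak in all 6. Genes within 200 bp of the start are found at every height of the plot, and the 4 named genes lie farther away.

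Some features that the choice by symbol did not use were more frequent at these start regions than over all protein-coding genes, though each at a minority of the genes. Motifs and runs were searched at the start chosen for each gene. A run of at least 8 pyrimidines within 20 bases of that start was found at 30 of the 80 genes (37.5%) and at 15.9% of all protein-coding genes. The search did not require the run to begin at the start and left out shorter runs, so it does not count TOP tracts. CCGGAAG was found at 14 (17.5%), including Rpl15, Rps21, Rps6 and Rpl8, and at 6.69% of all. AANATGGC was found at 5 (6.25%) and at 1.80% of all. The remaining motifs were about as frequent as elsewhere, with GGGCGG at 35.0% and 33.9%, CCAAT at 20% and 21.6%, TATAAA at 5% and 6.08%, and GCATGCGC at 2.5% and 2.12%. A match of letters is a description and not a bound site. The genes compared with include the 38.5% of protein-coding genes that had no TSS peak in any library. Shares among genes with a peak in all 6 libraries are not given here, nor are they for the snoRNA genes and opposite starts below.

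Most of these features went with small differences in the strength of the peaks, given here as a description. The median of mean ranks was 75.4 for the 26 genes with a pyrimidine run and a peak in all 6 libraries and 81.4 for those without a run. All 4 core genes with a missing peak, Rpl4, Rpl8, Rpl12 and Rpl19, carried a run. With CCGGAAG it was 83.3 (12 genes) and without it 77.8. The widest gap was that of CCAAT, at 90.3 (16 genes) with the motif, Rps23 and Rps29 among them, and 76.6 without. Each of the 16 genes with CCAAT had a TSS peak in all 6 libraries, as did 73 of all 80 ribosomal protein genes (91.2%). Ranks with and without CCAAT over all protein-coding genes are not given here.

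Ribosomal protein genes are known hosts of snoRNAs, which are cut out of their introns and guide the modification of rRNA. In the annotation, 29 of the 80 genes (36.2%) held 56 snoRNA genes, against 1.17% of all protein-coding genes with at least 1. The median of mean ranks was 77.2 with and 80 without a snoRNA gene. A start of another protein-coding gene on the opposite strand within 1000 bp was found at 15 genes (18.8%, against 11.4% of all), and the median of mean ranks was 71.6 with and 81.3 without one. Within 500 bp of the chosen start, the median ratio of observed to expected CpG was 0.82 at the 73 genes with a peak in all 6 libraries. It was 0.75 at all protein-coding genes with a peak in all 6. The median GC content was 57.1% and 59.4%.

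**Figure D4:**
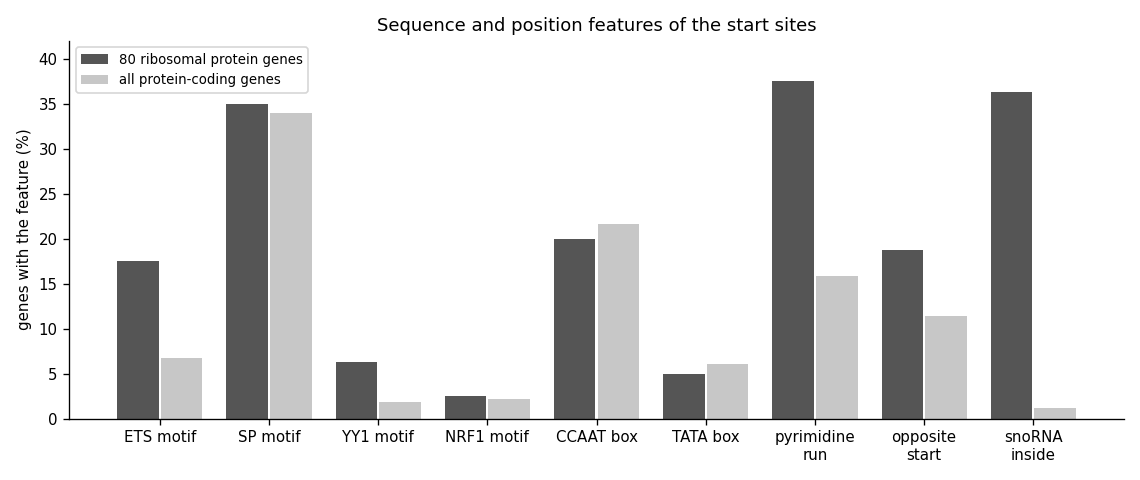
Percentage of genes (y axis) with each sequence or position feature of the start site (x axis), for the 80 ribosomal protein genes in dark grey and all protein-coding genes in light grey. The bars differ most for snoRNA genes inside the gene (36.2% and 1.17%) and for the pyrimidine run (37.5% and 15.9%), and hardly for SP, NRF1, CCAAT and TATA motifs.

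The comparison of the age groups asked whether the accessibility of these promoters differed between young and middle-aged SSPCs. No ribosomal protein gene passed the test. Each library was centred on its median log2 fold enrichment over the 10569 genes with a TSS peak in all 6 libraries, and all were tested together with limma. At an adjusted p under 0.05, 0 of the 73 ribosomal protein genes and 0 of all 10569 genes (0%) were called, and the lowest adjusted p of limma among the ribosomal protein genes was 0.507. At an unadjusted p under 0.05 limma gave 8 of the 73 (11%), beside 9.19% of all genes tested. Of the 8, 4 were higher and 4 lower in middle-aged libraries, beside 3.34% and 5.85% of all genes tested.

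On the centred scale the differences were small. The centring removes any shift that the genes share, so the median over all genes lies near 0 by design. The median difference over the 73 genes, middle-aged minus young on the centred log2 scale, was 0.01, and over all genes tested -0.03. It ran from -0.28 (Rpl10) to 0.34 (Rpl5), with 40 genes above and 33 below 0. The 95% interval of limma had a median half-width of 0.27 and lay between -1 and 1 at each of the 73 genes, so that a change of 2-fold or more in this measure lay outside the interval of each. The spread between libraries was that of other genes, with a median SD of the centred log2 fold over 6 libraries of 0.15 at ribosomal protein genes and 0.14 at all genes tested.

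On this scale the 3 middle-aged libraries lay above the 3 young ones at 7 of the 73 genes (9.59%, against 5.01% of all genes tested) and below them at 3 (4.11%, against 10.4%). Of the 7, Rpl5, Rpl28 and Rpl11 had the largest differences. Rpl5 stood at -0.06, -0.26 and -0.41 in young 1 to 3 and at 0.08, 0.09 and 0.11 in middle-aged 1 to 3 (difference 0.34 ± 0.12 SE, adjusted p of limma 0.507). The folds behind it were 9.16, 9.39 and 7.10 in young and 12.8, 12.8 and 13.1 in middle-aged libraries.

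Rpl28 stood at -0.38, -0.10 and -0.27 in young and at 0.07, 0.04 and 0.05 in middle-aged libraries (difference 0.30 ± 0.12 SE, adjusted p of limma 0.513). Rpl11, the partner of Rpl5 and 5S rRNA in binding Mdm2, stood at -0.33, -0.66 and -0.44 in young and at -0.17, -0.14 and -0.27 in middle-aged libraries (difference 0.29 ± 0.14 SE, adjusted p of limma 0.532). In these 3 genes the middle-aged values were close together and the young ones spread, but no difference passed the test.

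The 3 genes that lay lower in all middle-aged libraries on this scale were Rpl10, Rpl27 and Rpl23a. Rpl10, an X-linked gene for a protein close to the peptidyl transferase centre, stood at -0.07, -0.28 and -0.07 in young and at -0.36, -0.36 and -0.55 in middle-aged libraries (difference -0.28 ± 0.13 SE, adjusted p of limma 0.530). Rpl27 differed by -0.24 ± 0.09 SE (adjusted p of limma 0.507) and Rpl23a by -0.19 ± 0.15 SE (adjusted p of limma 0.711). Without the centring of libraries, Rpl27 and Rpl23a differed by 0.03 and 0.08, so that their direction depends on the scaling, and the difference of Rpl10 shrank to -0.02. By percentile rank Rpl23a separated the other way. It ranked at 44.7, 56.7 and 52.0 in young 1 to 3 and at 59.4, 60.5 and 59.4 in middle-aged 1 to 3. It is thus also among the genes counted below whose middle-aged ranks all lay higher.

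**Figure D5:**
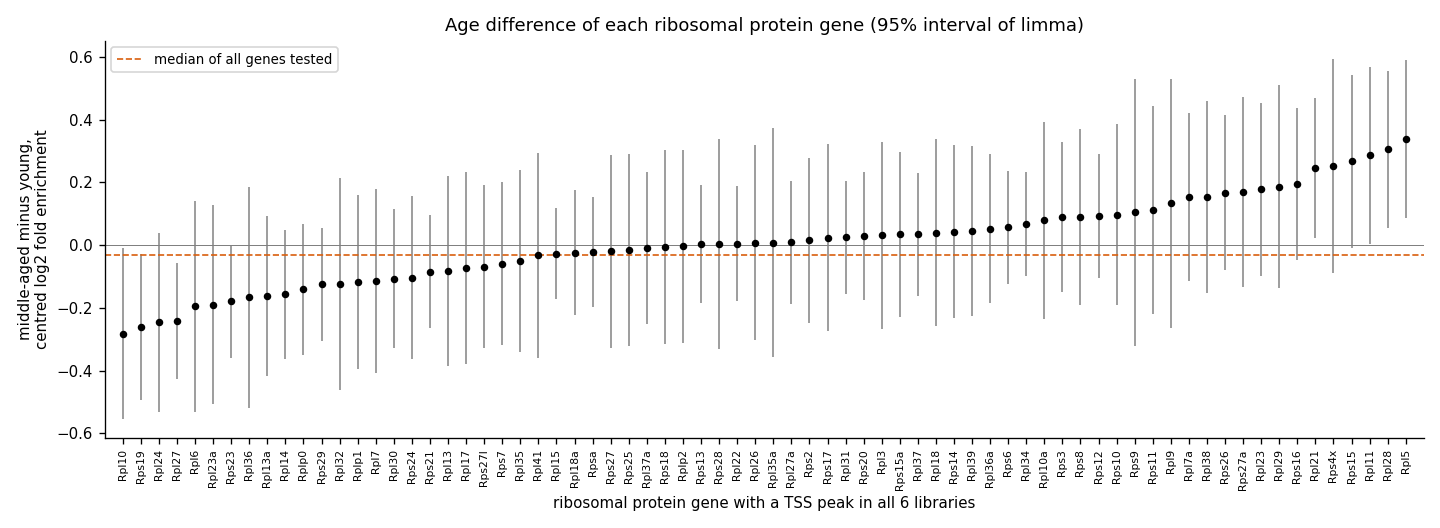
Difference in centred log2 fold enrichment between middle-aged and young libraries (y axis, point) with the 95% interval of limma (line) for 72 of the 73 ribosomal protein genes with a TSS peak in all 6 libraries (x axis, ordered by difference), and the median of all genes tested as a dashed line at -0.03. The points run from -0.28 to 0.34 around that line, and the few intervals that leave out 0 are unadjusted.

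Ranks and raw folds, which are not centred, had higher medians in middle-aged libraries, both at ribosomal protein genes and over all genes. The mean of the library medians of rank was 76.0 ± 5.36 in young and 83.6 ± 2.17 in middle-aged libraries at ribosomal protein genes (SD, n = 3 each), and 80.2 ± 3.39 and 85.0 ± 0.598 over all genes with a TSS peak. The mean of the library medians of fold was 8.88 ± 1.13 and 10.7 ± 0.598 at ribosomal protein genes, and 9.48 ± 0.702 and 11 ± 0.0406 over all. For width it was 495 bp ± 86.2 and 567 bp ± 33.7, and 501 bp ± 51.4 and 550 bp ± 7.81. The lists of the middle-aged libraries are also longer, and list length moves with the rank of a peak.

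The 3 middle-aged ranks lay above the 3 young ranks at 30 of the 73 genes (41.1%, against 30.6% of all genes tested) and below them at 0 (against 0.274%). For 1 gene such a separation has a two-sided exact permutation p of 0.1, the smallest that 3 against 3 libraries allow. When every list was shortened to the 27628 strongest peaks, 71 ribosomal protein genes kept a TSS peak in all 6 libraries and 9 of them (12.7%) separated in this way, against 9.51% of all genes. The difference between the groups in the median rank was then 3.38 percentile points at ribosomal protein genes and 1.36 over all genes, against 7.68 and 4.76 with the full lists.

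The other lists of translation genes gave no calls either. At an adjusted p of limma under 0.05, 0 of 68 mitochondrial ribosomal protein genes, 0 of 30 translation factors and 0 of 28 biogenesis genes were called. At an unadjusted p under 0.05, limma gave 6 higher and 0 lower in middle-aged among the mitochondrial ribosomal protein genes, 0 and 4 among the translation factors, and 1 and 1 among the biogenesis genes, beside the 3.34% higher and 5.85% lower over all genes tested. Their median differences on the centred log2 scale were -0.04, -0.05 and -0.01.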

How the data were processed

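SSPC cultures of 3 young and 3 middle-aged mouse libraries were sequenced by ATAC-seq. The authors aligned reads to mm10 with Bowtie2, removed duplicates with Sambamba and called peaks with MACS in each library; bcl2fastq is named in the submitters' processing notes. No shift of reads for Tn5 is given in the sources used here, and it would move summits by a few bases. The deposited peak lists hold a score (the -log10 q times 10, rounded down), the fold enrichment, the -log10 p-value and the -log10 q-value. The fold is a ratio of summit height to local background, with the same constant added to both. The score was not used. Reads and total depth per library were not analysed here. The height of each summit was recovered from the deposited fold and -log10 p, and came out whole within 0.02 reads for 100% of the peaks of each library, so counting error is largest at low summits.

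Start sites (54361) came from GENCODE vM21 transcripts of protein-coding genes, and sequences from GRCm38.p6, the assembly of mm10. The log2 of the fold of the strongest TSS peak, centred on the library median, was tested with limma 3.58.1 (R 4.3.3; lmFit and eBayes with trend) and Benjamini-Hochberg adjustment over 10569 genes. Genes had to have a TSS peak in all 6 libraries, which leaves out 7 of the 80 ribosomal protein genes. The test was tried on simulated data with known changes. Lists are described by counts and medians, with no test. Named were the genes without a TSS peak in some library, the 5 highest and 5 lowest in mean rank, the 3 widest and 3 narrowest, in each direction the 3 largest differences without overlap of the groups, and genes of known roles; single values of some of these are not reported here, though counts and medians include them. The genes and lists were chosen with earlier results of these data known. Alternatives were other windows, peak thresholds, list lengths, scalings, a replicate block and leaving out each library. No pairing by replicate number was assumed in the main fit, and the labels do not state one. Deviations from the group means of same-numbered libraries had correlations of 0.018, -0.0065 and -0.011 over genes. With 3 libraries a group, these values cannot exclude a shared day or batch.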

Additional observations from a re-analysis of the deposited data

How the results depend on the processing

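No ribosomal protein gene passed the adjusted p of limma in any of the 14 other fits, the replicate block among them (0 ribosomal protein genes, 0 of all genes). Of all genes, 1 passed without centring, 2 with the recovered summit height over background and 0 to 1 when a library was left out (1 without young 3). With the replicate block 5 of the 73 ribosomal protein genes had an unadjusted p under 0.05, beside 8.85% of all genes, and the lowest adjusted p of limma was 0.527; over all other fits the lowest lay between 0.0546 (no centring) and 0.830. Without centring the median of all genes shifted to 0.24 and that of the ribosomal protein genes to 0.27, and Rpl27 (0.025) and Rpl23a (0.078) turned their direction. In that fit 30 of the 73 ribosomal protein genes had an unadjusted p of limma under 0.05, beside 35.6% of all genes.

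With equally long lists the difference in median rank fell to 3.38. The number of ribosomal protein genes whose middle-aged ranks all lay higher fell to 9 of 71 (12.7%, against 9.51% of all genes). Leaving out 1 library gave 32 to 54 ribosomal protein genes with higher and 0 to 1 with lower middle-aged ranks (54 without young 2), where 2 libraries separate from 3 more easily. These are counts of the 73 to 74 with a TSS peak in every library kept. Shares over all genes under these omissions are not given here, so the counts do not set ribosomal protein genes apart. The differences between groups in share, rank, width and fold then ran from 1.25 to 3.33 percentage points, from 5.24 to 10.6, from 22.2 to 99.7 bp and from 1.33 to 2.41, where the share was lowest without young 3 and highest without middle-aged 1 and the width was lowest without young 3; with equally long lists the share differed by 0.833 percentage points. These 4 differences kept their direction under every alternative.

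Summits under 8 to 13 reads were not called, so a missing peak does not show closed chromatin, and with 3 libraries a group small differences could not be detected.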
